A study of Mus musculus with 12 samples.

Results

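This account follows the genes of respiratory complex I in the livers of mice that lack the nucleoside transporter ENT3. Of 42 listed nuclear genes, subunits and assembly factors, 40 had a feature of their own symbol on the array, out of 30702 genes measured in this way. They were chosen by gene symbol, with no measured value in the rule, but with earlier results of these data known. Each had 1 feature. Of the other two, Ndufb4 and Ndufa11, the features are shared with further symbols and were not analysed here, and the subunits encoded on mitochondrial DNA had no feature under their own symbols and were not analysed here either. The measured genes fall into 6 core subunits, 27 accessory subunits and 7 assembly factors.

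Liver RNA of 12 mice was hybridised to 12 Affymetrix MTA 2.0 arrays, 1 mouse on each. The groups were KO females (ENT3 -/-, animals 13, 40 and 69), WT females (ENT3 +/+, animals 25, 27 and 38), KO males (ENT3 -/-, animals 18, 19 and 39) and WT males (ENT3 +/+, animals 17, 23 and 33). All were labelled as strain C57BL6/J and were killed at 12 weeks, with no treatment named, and the sex is that of the letter F or M in each title. No promoter, Cre or deleted exon is named in the labels, so the ENT3 -/- mice are described here only by that genotype. Values are log2 signals as deposited, and a difference is the KO mean less the WT mean, with its standard error (SE). "Called" means a limma adjusted p under 0.05 over all 65956 transcript features.

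Complex I takes electrons from NADH and passes them to ubiquinone, and it uses the energy released to pump protons across the inner mitochondrial membrane. It is L-shaped. The matrix arm holds the N module, where NADH is oxidised, and the Q module, where ubiquinone is reduced, and the membrane arm holds the proton pumps. Core subunits carry the flavin, the iron-sulfur clusters or the pumps and are shared with bacteria, accessory subunits surround and stabilise the core, and assembly factors help to build the enzyme but are not part of it. Hepatocytes are rich in mitochondria and oxidise fatty acids, which feeds this enzyme with NADH.

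The targeted gene was lower in every KO liver. Slc29a3, which encodes ENT3, averaged 4.13 ± 0.04 in KO livers and 5.07 ± 0.18 in WT livers (SD, n = 6 each), with a difference of -0.94 ± 0.07 (limma adjusted p = 0.000324), although no group rose above the negative controls. Array-level measures also differed by genotype. Poly-A spikes, transcripts added before labelling, averaged 5.44 ± 0.36 in KO arrays and 6.30 ± 0.32 in WT arrays (SD, n = 6 each; p = 0.005 by exact two-sided permutation within sex, the lowest value 400 arrangements allow; BH p = 0.0125 over 5 measures). The positive controls had a median of 8.12 in KO and 8.51 in WT arrays, the negative controls of 3.93 and 3.80, and all transcript features of 3.86 and 3.79 (exact permutation p = 0.01, 0.005 and 0.015; BH p = 0.0167, 0.0125 and 0.0188), while hybridisation spikes differed by -0.09 (exact permutation p = 0.395). KO male 19 stood apart from the other KO arrays, with a poly-A level of 6.06 that lay within the WT range of 5.98 to 6.81. Hepatocyte markers were high in all livers, with 6 of 10 at the scale's ceiling of 19.93 on every array, and none of the 40 complex I genes was at that ceiling. Precision is limited by the number of arrays.

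Promoter sequences of the family, whose genes are spread over many chromosomes, are shown first. Whether these sequences bear on the KO difference was not tested. Promoter windows from RefSeq (GRCm38.p6, 250 bases before to 50 after the start) were found for 36 of the 40 genes and were searched on both strands for letters of factors known to act on nuclear genes of mitochondria. AAGATGGC, a core recognised by YY1, occurred in 7 of the 36 windows (19.4%), against 3.2% of 17491 protein-coding genes. GCGCATGC, a core of the NRF1 site, occurred in 4 (11.1%), against 3.58%. CCGGAAGT, an ETS site of the kind bound by GABP, occurred in 1 (2.78%), against 5.21%, and AAGGTCA, a core of the ERR site, in 2 (5.56%), against 4.13%. CCAAT, the NF-Y box, occurred in 12 (33.3%), against 39.2%. These matches are letters in a window, not tested binding sites.

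The 7 windows of 30 bases with the YY1 letters in capitals show what these promoters share. They are written in the gene's own direction:
Ndufs7: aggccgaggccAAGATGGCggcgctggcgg
Ndufa9: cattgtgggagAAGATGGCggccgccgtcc
Ndufs4: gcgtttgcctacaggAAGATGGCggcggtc
Ndufs6: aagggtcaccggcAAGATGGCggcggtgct
Ndufc1: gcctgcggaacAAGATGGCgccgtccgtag
Ndufb8: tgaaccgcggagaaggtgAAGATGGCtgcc
Ndufa3: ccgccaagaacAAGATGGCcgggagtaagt
In all 7 the letters ran in the direction of the gene and began at base 23 to 39, counted from 1 at the annotated start. Among all 559 promoters with this match, 226 (40.4%) had their first match after the start and in the gene's direction. AAGATGGC includes the letters ATG of a start codon, and whether these matches lie at the start of the coding sequence was not tested. The windows lie on chr10:80249462-80249491 (plus strand, Ndufs7), chr6:126849097-126849126 (minus, Ndufa9), chr13:114388045-114388074 (minus, Ndufs4), chr13:73328433-73328462 (minus, Ndufs6), chr3:51408915-51408944 (minus, Ndufc1), chr19:44555393-44555422 (minus, Ndufb8) and chr7:3617384-3617413 (plus, Ndufa3). Of the 7 genes, 5 were called lower in KO and Ndufs6 and Ndufa3 were not; the letters stood in 5 of 17 called and 2 of 19 other promoters. Yy1 itself was not called, at 0.13 ± 0.09 (limma adjusted p = 0.474).

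The NRF1 letters, or their reverse complement, are shown in capitals at their first match in the 4 genes that hold them, which did not move alike:
Ndufa8: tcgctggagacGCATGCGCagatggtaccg
Ndufa6: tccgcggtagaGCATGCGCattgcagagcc
Ndufaf4: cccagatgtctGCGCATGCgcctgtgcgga
Ndufaf5: tagtcccgttgGCGCATGCgcctaatagaa
They lie on chr2:36049328-36049357 (minus), chr15:82354356-82354385 (minus), chr4:24897959-24897988 (plus) and chr2:140170651-140170680 (plus). Of these 4 genes only Ndufa8 was called, and the difference of Ndufaf4 was positive. Counted on both strands, Ndufaf4 held 3 matches and Ndufaf5 2, overlapping ones included, against 1 each in Ndufa8 and Ndufa6. CCAAT stood in 4 of 17 called and 8 of 19 other promoters. The core subunit with the largest difference, Ndufs8, held none of the YY1 or NRF1 letters in its promoter window. Its 250 bases before the start, chr19:3912775-3913024 on the minus strand, are shown here. They hold 3 CCAAT boxes (capitals), which begin 120, 70 and 16 bases before the start:
Ndufs8: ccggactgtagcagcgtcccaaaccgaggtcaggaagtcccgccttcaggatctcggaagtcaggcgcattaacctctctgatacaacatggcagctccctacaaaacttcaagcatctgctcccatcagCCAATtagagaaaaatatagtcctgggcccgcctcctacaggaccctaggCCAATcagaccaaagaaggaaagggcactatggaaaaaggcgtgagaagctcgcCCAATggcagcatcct

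Across all mice, complex I genes were lower in KO livers. Of the 40 genes 20 were called lower, 0 were called higher and 20 were not called, and 37 of 40 differences were negative, with a median of -0.38. Over all genes measured, 8.25% were called lower and 5.81% higher, with a median of 0.03. Of the 4530 protein-coding genes above the negative controls, a background nearer in signal, 29.8% were called lower, with a median of -0.20. Among complex I genes above the same level, 17 of 29 (58.6%) were called lower, with a median of -0.44. Among these 17, Ndufaf3 passed that level only through WT livers, with a mean of 6.32 in KO and 7.19 in WT. Where the mean of each genotype had to lie above it, 16 of 28 complex I genes (57.1%) and 29% of 4212 protein-coding genes were called lower. At an unadjusted limma p under 0.05, 28 of the 40 genes were lower and 0 were higher; above the negative controls it was 23 of 29 lower (79.3%), against 44.1% of protein-coding genes lower and 13.4% higher. The differences of called genes ran from -1.41 to -0.26, so that KO signal was 37.7% to 83.5% of WT signal on the deposited scale, and 8 genes also differed by at least 1.5-fold.

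**Figure D1:**
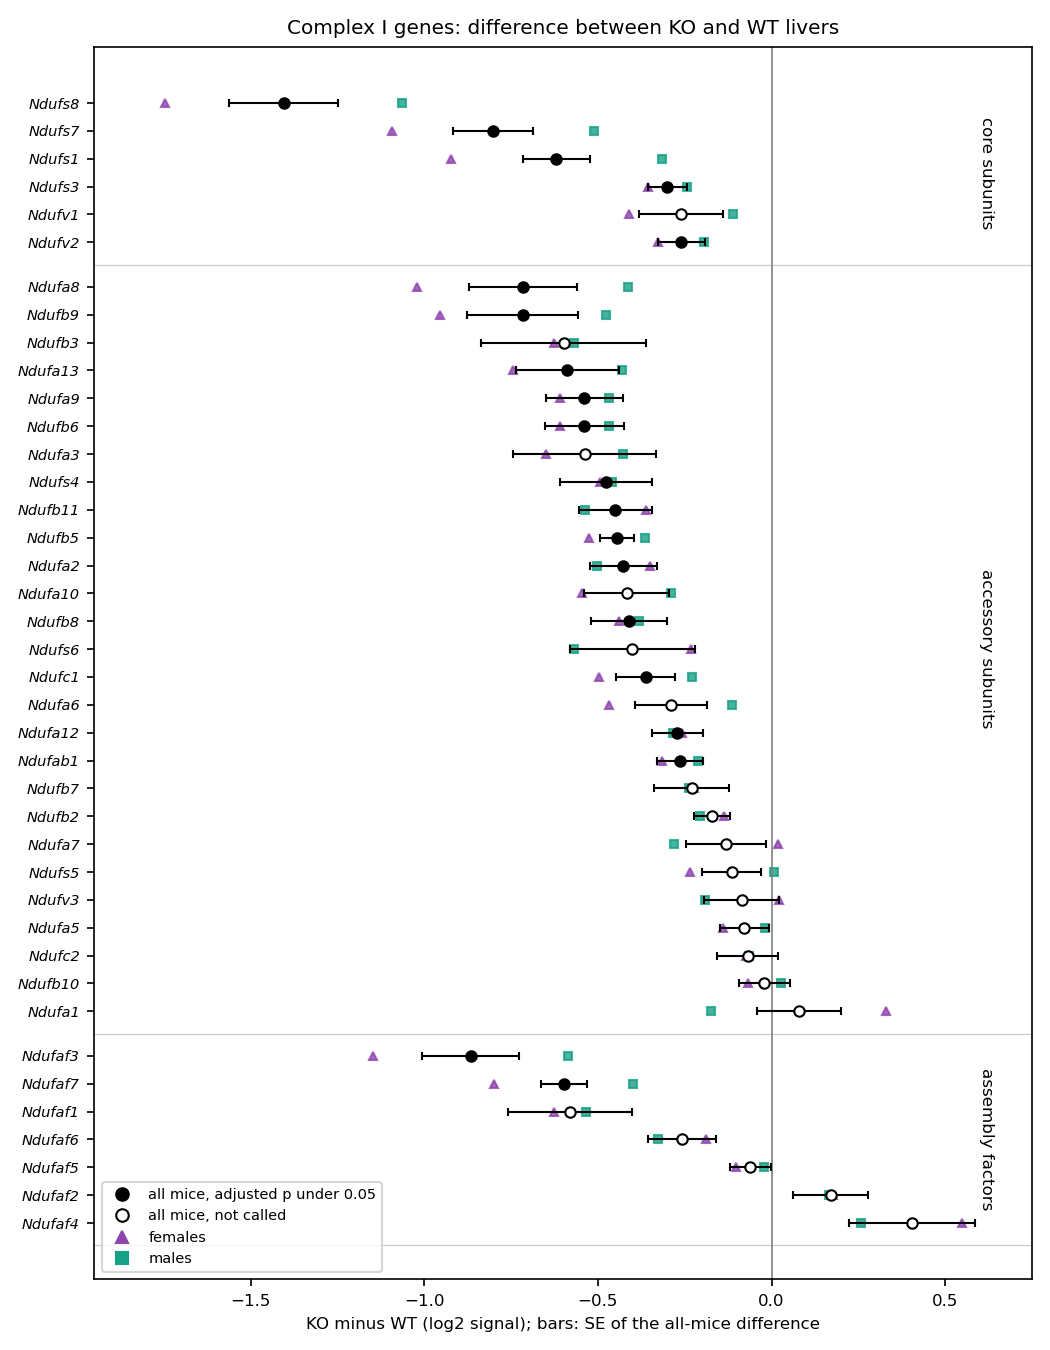
Difference between KO and WT livers (log2 signal) of the 40 complex I genes, by class and ordered by the all-mice value. Circles give all mice with their SE (filled: limma adjusted p under 0.05), triangles females and squares males; 37 of 40 circles lie left of 0, and Ndufs8 lies farthest left at -1.41.

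Every KO mouse lay below every WT mouse in 11 of the 40 genes, Ndufa2, Ndufa9, Ndufab1, Ndufb5, Ndufb6, Ndufc1, Ndufs3, Ndufs7, Ndufs8, Ndufaf3 and Ndufaf7. This was so for 3.63% of all genes and for 12.3% of protein-coding genes above the negative controls; of the 29 complex I genes above that level it was 8 (27.6%). These 8 include Ndufaf3; where the mean of each genotype lay above that level it was 7 of 28 (25%), against 11.9% of protein-coding genes. Each KO liver showed the shift. The median deviation of the 40 genes from the WT mean of the same sex was -0.34, -0.29 and -0.47 in KO females 13, 40 and 69 and -0.37, -0.28 and -0.31 in KO males 18, 19 and 39, against -0.12 to 0.17 in the 6 WT mice. In a KO mouse, 20 to 26 of the 29 complex I genes above the negative controls (69% to 89.7%) lay below the lowest WT mouse of its sex, against 39.8% to 59.6% of protein-coding genes above that level. In KO male 19, which had the smallest median deviation of the KO mice, these shares were 69% and 39.8%.

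**Figure D2:**
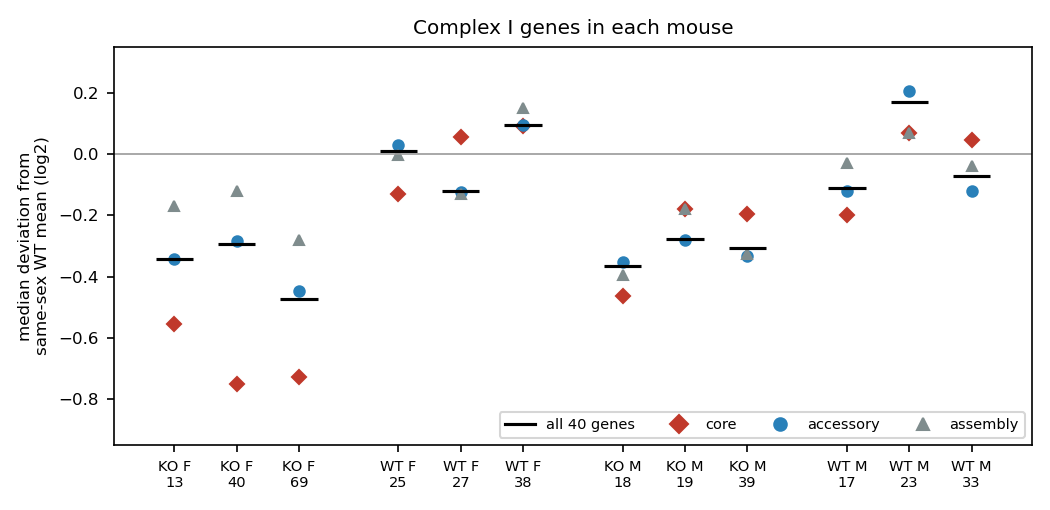
Median deviation of complex I genes from the WT mean of the same sex (log2 signal) in each mouse, KO left of WT within each sex; lines give all 40 genes and symbols the 3 classes. All 6 KO lines lie between -0.47 and -0.28 and all 6 WT lines between -0.12 and 0.17, and core subunits lie lowest in the 3 KO females.

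Core subunits were called most often, in 5 of 6 genes (83.3%), with a median of -0.46. The share was 29.8% among protein-coding genes above the negative controls. All 6 core subunits lay above the negative controls, while some genes of the other 2 classes did not. All 3 core subunits of the Q module measured here were called and did not overlap between genotypes. Ndufs8 holds a pair of the iron-sulfur clusters that lead electrons towards ubiquinone. Its signals were 10.98, 10.99 and 10.53 in KO females 13, 40 and 69, against 12.15, 12.71 and 12.89 in WT females 25, 27 and 38. In males they were 11.46, 11.66 and 11.47 in KO mice 18, 19 and 39, against 12.30, 12.97 and 12.52 in WT mice 17, 23 and 33. The highest KO value was thus below the lowest WT value, and KO females were lower than KO males. The difference was -1.41 ± 0.16 (limma adjusted p = 0.000981).

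Ndufs7 carries the last iron-sulfur cluster before ubiquinone. Its lowest, median and highest signals were 7.23, 7.64 and 8.09 in KO livers, against 8.12, 8.34 and 8.73 in WT livers. The groups came close at KO male 19 and WT female 25 but did not overlap, and the difference was -0.80 ± 0.12 (limma adjusted p = 0.00267). Ndufs3 is a core subunit without a cofactor on which the Q module is built. It had 8.56, 8.71 and 8.84 in KO livers, against 8.92, 9.01 and 9.10 in WT livers, a small but separate shift of -0.30 ± 0.06 (limma adjusted p = 0.00866).

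In the N module, Ndufs1 holds iron-sulfur clusters that accept electrons from the flavin end. It ran through 9.30, 9.56 and 9.95 in KO livers, against 9.93, 10.30 and 10.44 in WT livers. Only WT male 17 fell within the KO range, level with KO males 19 and 39, and the difference was -0.62 ± 0.10 (limma adjusted p = 0.00368). Ndufv2, which carries an iron-sulfur cluster beside the flavin, had 9.25, 9.47 and 9.60 in KO livers, against 9.56, 9.64 and 9.90 in WT livers. KO female 40 reached the level of the WT males, and the difference was -0.26 ± 0.07 (limma adjusted p = 0.0374). Ndufv1, which binds NADH and the flavin, had 9.23, 9.46 and 9.80 in KO livers, against 9.34, 9.82 and 9.92 in WT livers. Its groups overlapped widely, since WT male 17 was at 9.34, and the difference of -0.26 ± 0.12 did not pass (limma adjusted p = 0.234).

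**Figure D3:**
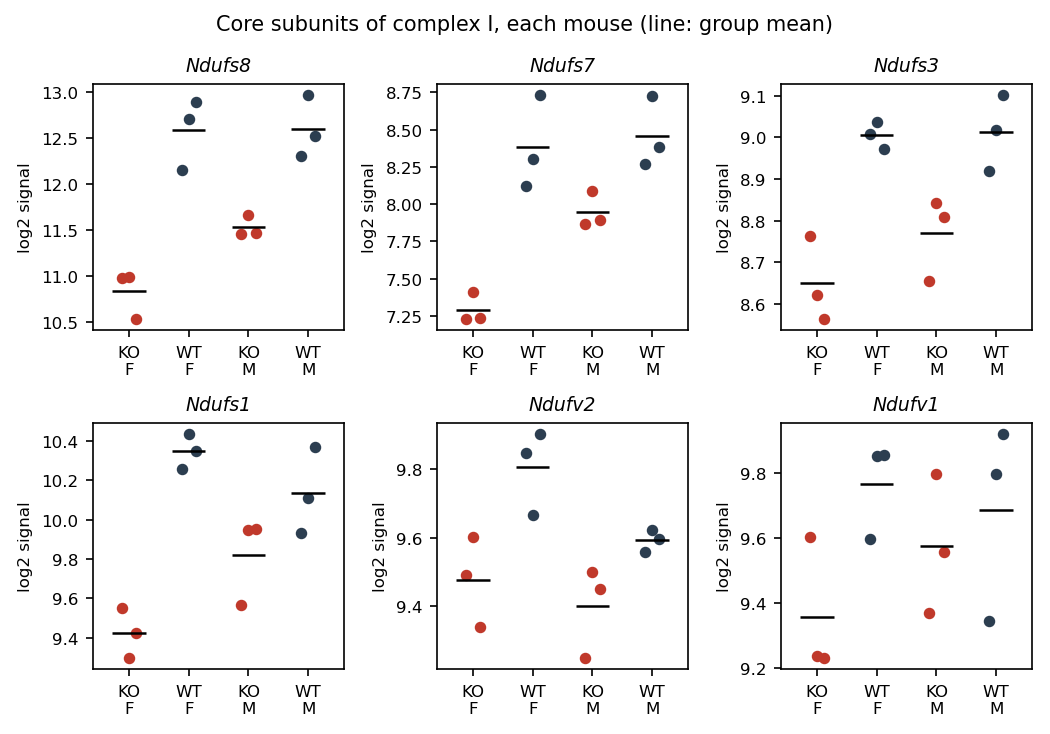
Log2 signal of the 6 core subunits in each mouse, by genotype and sex (F, female; M, male), KO left of WT; the short line is the mean of 3 mice. In Ndufs8, Ndufs7 and Ndufs3 all 6 KO points lie below all 6 WT points, and in Ndufv1 the groups overlap.

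Accessory subunits were called in 13 of 27 genes (48.1%), with a median of -0.40 and 26 negative differences. Among protein-coding genes above the negative controls 29.8% were called lower. Ndufb5, a membrane subunit of the distal arm, had the smallest p of all 40 genes. It had 6.60, 6.72 and 6.82 in KO livers, against 7.05, 7.17 and 7.28 in WT livers. Within each genotype the mice differed little (SD 0.08 and 0.08, n = 6 each), and the groups were apart by -0.44 ± 0.05 (limma adjusted p = 0.000943). Ndufb6, also of the distal arm, had 11.31, 11.68 and 11.97 in KO livers, against 12.06, 12.14 and 12.41 in WT livers. KO male 19 came nearest to the WT range without entering it (-0.54 ± 0.11, limma adjusted p = 0.0153).

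Ndufa9 lies where the Q module meets the membrane arm and binds a pyridine nucleotide. It had 11.28, 11.48 and 11.69 in KO livers, against 11.78, 12.00 and 12.44 in WT livers, with no overlap (-0.54 ± 0.11, limma adjusted p = 0.0138). Ndufa8, a subunit on the intermembrane side with paired cysteine motifs, had 9.38, 9.76 and 10.59 in KO livers, against 10.36, 10.53 and 10.91 in WT livers. Here the 3 KO females and KO males 18 and 39 were below all WT mice, whereas KO male 19, at 10.59, lay within the WT range. The difference was -0.72 ± 0.16 (limma adjusted p = 0.0173). Ndufb9, a protein on the matrix face of the distal arm that binds the acyl carrier protein, had 16.40, 17.10 and 17.44 in KO livers, against 17.44, 17.57 and 18.33 in WT livers. The groups met at KO male 19 and WT females 25 and 27, all at 17.44 (-0.72 ± 0.16, limma adjusted p = 0.0194).

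Ndufa2, a subunit of the N module with a thioredoxin-like fold, had 8.97, 9.41 and 9.52 in KO livers, against 9.59, 9.81 and 9.99 in WT livers. The groups were apart, with KO male 19 lowest (-0.43 ± 0.10, limma adjusted p = 0.02). Ndufb11, an X-linked subunit of the distal arm, had 9.03, 9.38 and 9.65 in KO livers, against 9.56, 9.82 and 10.03 in WT livers. KO female 13, at 9.65, lay above WT male 17 (-0.45 ± 0.10, limma adjusted p = 0.0238). Ndufc1, a small subunit of the proximal arm, had 5.61, 5.65 and 5.85 in KO livers, against 5.93, 5.98 and 6.46 in WT livers. It did not overlap, but 3 of its 4 groups lay within the negative controls, so the size of -0.36 ± 0.08 is not exact (limma adjusted p = 0.0241).

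The other called accessory subunits had smaller margins. Ndufa13, also known as GRIM-19, differed by -0.59 ± 0.15 (limma adjusted p = 0.033), Ndufs4, a late-added subunit of the N module, by -0.48 ± 0.13 (0.0482), Ndufb8 of the distal arm by -0.41 ± 0.11 (0.0411), Ndufa12 of the N module by -0.27 ± 0.07 (0.0439) and Ndufab1, the mitochondrial acyl carrier protein, by -0.26 ± 0.07 (0.0324). Each of these 5 lost its call in at least 1 of 12 fits without 1 mouse, as did Ndufa2, Ndufb9, Ndufb11, Ndufc1 and the core subunit Ndufv2. Uncalled accessory subunits with a difference of -0.40 or beyond were Ndufb3 (-0.60 ± 0.24), Ndufa3 (-0.54 ± 0.21), Ndufa10 (-0.42 ± 0.12) and Ndufs6 (-0.40 ± 0.18), with limma adjusted p of 0.0606 to 0.212. Ndufa6, Ndufb7, Ndufb2, Ndufa7, Ndufs5, Ndufv3, Ndufa5, Ndufc2 and Ndufb10 were at -0.29 to -0.02 and were not called. The X-linked Ndufa1 had the only positive difference among accessory subunits, 0.08 ± 0.12 (limma adjusted p = 0.758).

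By position in the enzyme, calls were spread over both arms. In the Q module 4 of 5 subunits were called (median -0.54), all but Ndufa5, and in the N module 5 of 10 (median -0.28). In the membrane arm 3 of 8 subunits of the proximal part (median -0.39) and 5 of 9 of the distal part (median -0.44) were called. Ndufab1, which sits in both arms, was called as well. Of protein-coding genes above the negative controls, 29.8% were called lower. No test was made between positions or classes.

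Assembly factors were called in 2 of 7 genes (28.6%), with a median of -0.26, and held 2 of the 3 positive differences. That share was close to the 29.8% of protein-coding genes above the negative controls, and over all genes it was 8.25%. The 7 were not filtered by signal, and Ndufaf2, Ndufaf5, Ndufaf6 and Ndufaf7 did not lie above that level. With dim features left out, which keeps only Ndufaf1, Ndufaf3 and Ndufaf4, the median was -0.58, against -0.46 for core subunits. Ndufaf7, a methyltransferase that modifies a core subunit early in assembly, had 5.78, 6.08 and 6.35 in KO livers, against 6.50, 6.65 and 6.83 in WT livers. All KO values lay below all WT values, those of KO females lowest (-0.60 ± 0.07, limma adjusted p = 0.000984). Ndufaf3, which works on the Q module together with Ndufaf4, had 5.81, 6.38 and 6.59 in KO livers, against 6.88, 7.12 and 7.74 in WT livers. Its groups were apart too (-0.87 ± 0.14, limma adjusted p = 0.0045), though for both genes the 2 KO groups lay within the negative controls, so the sizes are not exact.

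Ndufaf1, which helps to build the membrane arm, had 6.65, 7.43 and 7.68 in KO livers, against 7.58, 7.86 and 8.43 in WT livers. KO male 18 and KO females 13 and 69 lay below all WT mice and the other 3 KO mice lay within the WT range, and the difference of -0.58 ± 0.18 was not called (limma adjusted p = 0.0733). Ndufaf4, the partner of Ndufaf3, had 8.22, 8.91 and 9.13 in KO livers, against 8.06, 8.28 and 8.89 in WT livers. It ran opposite to its partner at 0.40 ± 0.18 but did not pass (limma adjusted p = 0.217). Ndufaf2, a late-acting relative of Ndufa12, was at 0.17 ± 0.11 (limma adjusted p = 0.39), Ndufaf6, which acts early in assembly, at -0.26 ± 0.10 (0.138) and Ndufaf5, which modifies Ndufs7, at -0.06 ± 0.06 (0.593). Signals of Ndufaf2, Ndufaf5, Ndufab1 and Ndufb2 lay within the negative controls in all 4 groups, and those of Ndufa7, Ndufb7, Ndufb10, Ndufs5 and Ndufaf6 in at least 1.

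**Figure D4:**
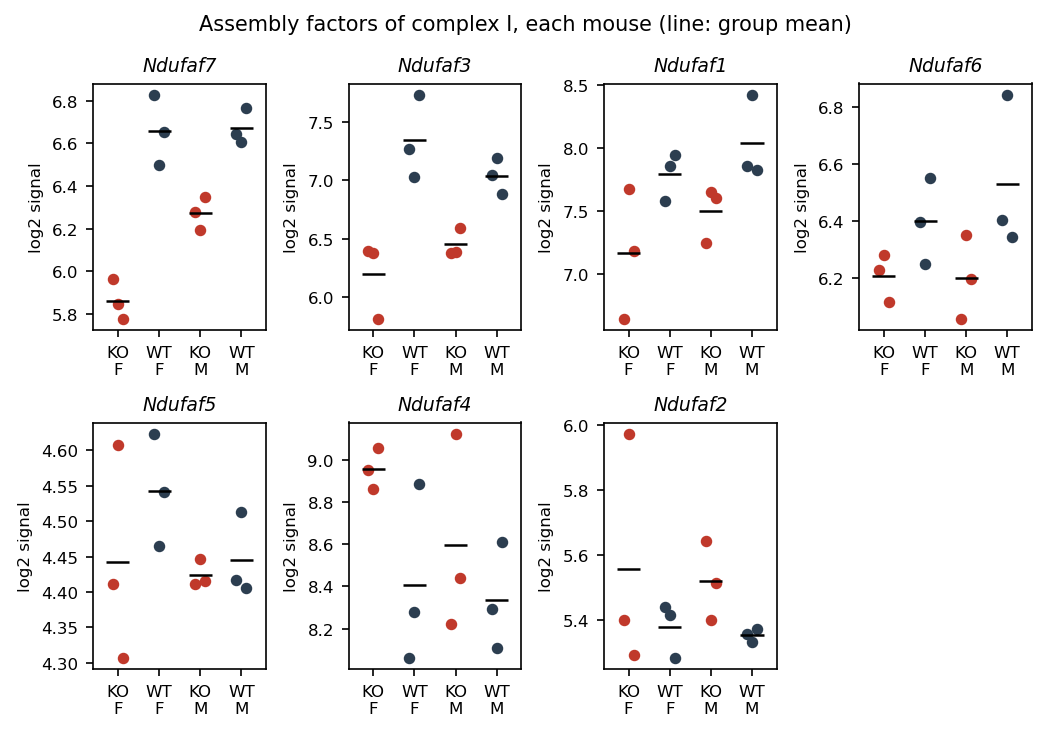
Log2 signal of the 7 assembly factors in each mouse, by genotype and sex (F, female; M, male), KO left of WT; the short line is the mean of 3 mice and each panel has its own scale. KO points lie below WT points in Ndufaf7 and Ndufaf3, and the KO means lie above the WT means in Ndufaf4 and Ndufaf2.

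Within females 11 of the 40 genes were called lower, Ndufa8, Ndufa9, Ndufb5, Ndufb9, Ndufc1, Ndufs1, Ndufs3, Ndufs7, Ndufs8, Ndufaf3 and Ndufaf7 (27.5%), against 5.7% of all genes and 22.6% of protein-coding genes above the negative controls. Within males only Ndufb5 was called (2.5%), against 0.945% and 4.3%. At an unadjusted limma p under 0.05, 25 genes were lower in females and 18 in males, and none was higher. Above the negative controls it was 22 of 29 in females (75.9%) and 14 of 29 in males (48.3%), against 40.5% and 27.2% of protein-coding genes. In 33 genes the difference was negative in both sexes, and the medians were -0.39 in females and -0.30 in males. The difference was more negative in females for 28 of 40 genes and for 17 of the 20 called ones, all but Ndufa2, Ndufa12 and Ndufb11. Above the negative controls it was so for 22 of 29 complex I genes (75.9%) and for 59.4% of protein-coding genes, and the sexes' shares were not tested against each other.

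The difference between the sexes was itself tested, and 0 of 40 genes were called (lowest limma adjusted p = 0.552), against 0.00152% of all features. At an unadjusted limma p under 0.05 there were 3, all with the more negative difference in females; above the negative controls 2 of 29 (6.9%) were so, against 10.4% of protein-coding genes, so this count does not exceed the background. Ndufs1 was at -0.92 ± 0.14 in females and -0.32 ± 0.14 in males, with 9.55, 9.30 and 9.43 in KO females against 10.26, 10.44 and 10.35 in WT females, and 9.56, 9.95 and 9.95 in KO males against 9.93, 10.11 and 10.37 in WT males. The female groups were thus far apart and the male groups met at the edge. Ndufaf7 was at -0.80 ± 0.09 and -0.40 ± 0.09, and Ndufs7 at -1.09 ± 0.16 and -0.51 ± 0.16. Ndufs8 was at -1.75 ± 0.22 in females (limma adjusted p = 0.00289) and -1.06 ± 0.22 in males (0.0567).

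Further assembly factors were also lower in part, whereas most biogenesis regulators were not called. Of 16 further assembly factors and partners measured, 10 were called lower (62.5%) and 0 higher, with a median of -0.42. Among protein-coding genes above the negative controls the share called lower was 29.8%, and over all genes 8.25%. The 16 were not filtered by signal, and 4 lay within the negative controls in all 4 groups. Tmem126b, a membrane protein of the complex that assembles the membrane arm, differed by -1.27 ± 0.11 (limma adjusted p = 0.000413), Acad9, an acyl-CoA dehydrogenase of the same assembly complex, by -0.57 ± 0.07 (0.00159), and Ociad2 by -1.33 ± 0.21 (0.00373). Timmdc1, another membrane-arm factor, differed by -1.003 ± 0.159 (0.00413) and Aifm1, which works with the import of subunits, by -0.62 ± 0.10 (0.00468). The remaining called genes were Tmem70, Dmac2, Ndufaf8, Ecsit and Foxred1. Of 12 regulators of mitochondrial biogenesis only 2 (16.7%) were called lower and 0 higher, with a median of -0.04. These were Twnk, the mitochondrial DNA helicase (-0.84 ± 0.15, limma adjusted p = 0.0072), and Tfb1m, a mitochondrial ribosomal RNA methyltransferase. That share lay between the 8.25% of all genes and the 29.8% above the negative controls. The 12 were not filtered by signal, and 5 lay within the negative controls in all 4 groups. At least 1 group of Tmem126b, Acad9, Ociad2, Timmdc1, Tmem70, Dmac2, Ndufaf8, Ecsit and Twnk lay within the negative controls. For Foxred1 all 4 groups did, so sizes for these genes are not exact.

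Neighbouring mitochondrial families are given for comparison. Of 24 nuclear genes of complexes II, III and IV, 7 were called lower (29.2%) and 1 higher, with a median of -0.37. Of 80 mitochondrial ribosomal protein genes, 34 were called lower (42.5%) and 0 higher, with a median of -0.25. Of protein-coding genes above the negative controls, 29.8% were called lower, with a median of -0.20. The share of complexes II, III and IV did not exceed this. Over all genes it was 8.25%. Neither family was filtered by signal, and 1 of the 24 and 20 of the 80 genes lay within the negative controls in all 4 groups. These families were not tested against complex I.

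**Figure D5:**
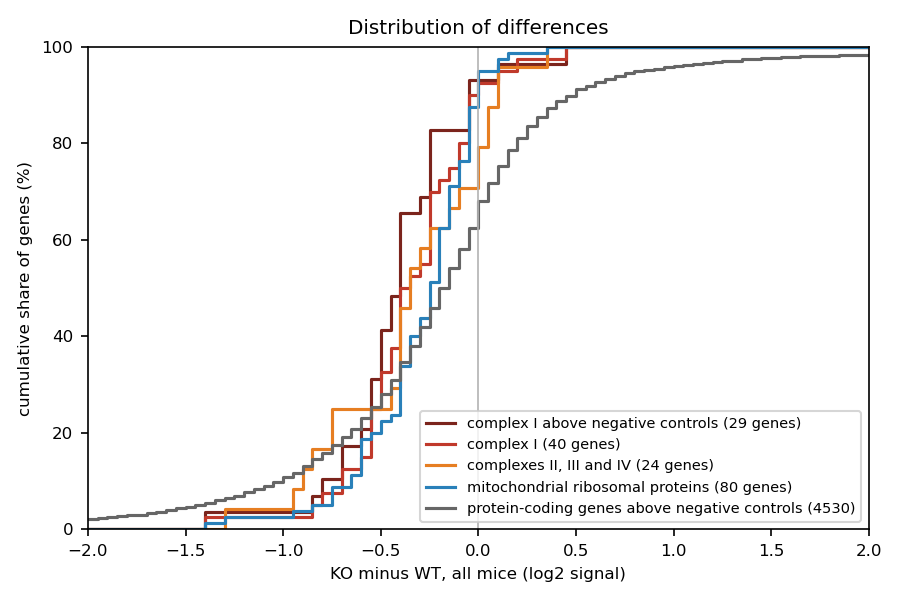
Cumulative share of genes (%) by KO minus WT difference over all mice (log2 signal) for complex I (all 40 genes and the 29 above the negative controls), complexes II, III and IV, mitochondrial ribosomal proteins and protein-coding genes above the negative controls. The complex I curves climb left of 0 with medians of -0.38 and -0.44, and the 4530 protein-coding genes have a median of -0.20 and wider tails.

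Markers of myeloid cells moved with genotype in the same livers. Of 8 macrophage and Kupffer cell markers 7 were called higher, with a summed signal of 13.64 to 18.18 in KO and 11.11 to 12.68 in WT (log2), and of 8 neutrophil markers 6, with 9.69 to 16.95 in KO and 7.45 to 8.53 in WT. No hepatocyte marker was called. Their summed signal was 22.84 to 22.87 in KO and 22.80 to 22.90 in WT, but 6 of the 10 were at the ceiling on every array and Tat on 11, so the sum can show little difference. Hnf4a, which was not at the ceiling, averaged 12.06 in KO and 12.52 in WT, with a difference of -0.46 ± 0.31 (limma adjusted p = 0.417). G6pc and Pck1, also not at the ceiling, differed by -0.08 ± 0.65 and 0.11 ± 0.10 (limma adjusted p = 0.966 and 0.562). Of 6 endothelial markers 3 were called higher and 2 lower, and of 4 megakaryocyte markers 1 higher. None of 7 lymphocyte, 6 stellate, 5 cholangiocyte and 3 erythroid markers was called. Of these, 7 lymphocyte, 3 stellate, 4 cholangiocyte and 2 erythroid markers lay within the negative controls in all 4 groups. Their lack of a call thus shows little. So did 3 megakaryocyte and 4 neutrophil markers lie within them. The part of the listed cell types in the complex I values was not tested. In bulk liver fewer cells of a type and less RNA per cell cannot be told apart. With the poly-A level as a covariate 0 of the 40 genes were called (lowest limma adjusted p = 0.204, Ndufaf7; 6 lower and 0 higher at an unadjusted p under 0.05). That fit called 3 of 65956 features in all (0.00455%), against 6432 without the covariate. Of genes above the negative controls, 5 of 29 complex I genes (17.2%) and 14.2% of protein-coding genes were lower in it at an unadjusted p under 0.05. The median of the 40 genes was -0.11, and 16 of the 20 called genes stayed negative, all but Ndufa8, Ndufa12, Ndufa13 and Ndufb9. Without WT male 23, WT female 38, KO male 18 or KO female 69, 13, 12, 13 and 13 genes were called lower, and 10 genes kept their call in all 12 such fits: Ndufa8, Ndufa9, Ndufb5, Ndufb6, Ndufs1, Ndufs3, Ndufs7, Ndufs8, Ndufaf3 and Ndufaf7.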

How the data were processed

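Livers of 12 mice in 4 groups of 3 were compared by the genotype in the labels and the letter for sex in each title. The authors deposited 1 log2 signal per feature and array. The submitters' processing notes name Transcriptome Analysis Console; its version, the background correction, the normalization and the build are not stated in the sources used here. The file shares 1 ceiling, 19.93, over all arrays. Array medians were 3.76 to 3.89, and r between arrays of a group was 0.987 to 0.995 (across features, not independent replicates).

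Gene symbols came from the platform table, and RefSeq (GRCm38.p6) gave chromosomes and promoters. A gene's value is that of its feature with the highest mean. The 6732 control features were left out, and limma 3.58.1 in R 4.3.3 (lmFit, eBayes, 8 residual degrees of freedom) fitted the 4 group means to the other 65956, with Benjamini-Hochberg (BH) adjustment over all of them. A group lay within the negative controls if its 3 mice were at or below the 95th percentile of the 5222 negative controls on their arrays; "above the negative controls" means a mean over 6.50, the mean of those percentiles. The fit was tested on simulated data. Promoters were searched with Python 3.11.15.

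The members and lists were chosen with earlier results of these data known. Mouse values are given for all core subunits, the 8 accessory subunits and 3 assembly factors with the smallest p, and the 3 smallest interaction p; other values were chosen after being seen. The comparison families and the motifs were chosen after the data had been received, and the promoters shown were chosen for their matches. Of the pathway genes, differences are given for the 6 called with the smallest p and for Yy1, which was not called. The other called ones are only named. Alternatives are given in the closing section.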

Additional observations from a re-analysis of the deposited data

Results flagged for a closer look

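In 80 genotype groups of 6 mice (40 genes, KO and WT), 5 had 1 mouse far from the other 5 by Dixon's ratio, the gap to the nearest mouse over the group's whole range, above the 95% critical value. Chance alone marks about 1 in 20 groups. Among KO mice, Ndufa2 was low in KO male 19 at 8.97, with the next mouse at 9.36 (ratio 0.714), Ndufb10 was low in the same mouse at 6.28 (0.829) and Ndufaf3 was low in KO female 69 at 5.81 (0.726). Among WT mice, Ndufa7 was high in WT male 23 at 7.05 (ratio 0.857) and Ndufc1 was high in WT female 38 at 6.46 (0.882).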

How the results depend on the processing

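The 20 genes called lower in KO became 19 after quantile normalization, 24 with arrays centred on their medians, 17 with no sex term, 15 with trend and robust settings, 22 with array weights and 8 when 1.5-fold was also required. With dim features left out 19 of 29 were called. Without KO male 19 and WT female 38 together the count was 12 over all mice, 6 in females and 0 in males. Leaving out 1 mouse gave 12 to 20 over all mice, 6 to 12 in females (6 without WT female 38 or KO female 69) and 0 to 2 in males. The female count of 11 was 7 with trend and robust settings. The male count of 1 was 3 after quantile normalization or centring, 4 with dim features left out, 2 with array weights, and 0 with trend and robust settings or at 1.5-fold. No alternative called a gene as higher or by sex.

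With the poly-A covariate, which differs by genotype, 0 genes were called over all mice, in females or in males (6, 7 and 3 lower at an unadjusted p under 0.05); over all mice that fit called 3 of 65956 features, 1 lower and 2 higher. Medians were then -0.11 over all 40 genes, -0.29 for core subunits, -0.0641 for accessory subunits and 0.056 for assembly factors, which reversed. The genes that reversed were Ndufa3 (0.43), Ndufa7 (0.30), Ndufa8 (0.21), Ndufa10 (0.081), Ndufa12 (0.052), Ndufa13 (0.080), Ndufb9 (0.00282), Ndufc2 (0.18), Ndufs6 (0.25), Ndufv1 (0.043), Ndufv3 (0.19), Ndufaf5 (0.056) and Ndufaf6 (0.18); the cause was not tested. Ndufb10 ran from -0.051 to 0.033 without 1 mouse, turning positive without WT male 23 (0.015), WT female 25 (0.033) or KO male 19 (0.011). The median of assembly factors was -0.58 with dim features left out, which keeps only Ndufaf1, Ndufaf3 and Ndufaf4.

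Over all features 2950 were called lower and 3482 higher, against 4091 and 2555 after quantile normalization and 4001 and 2538 after centring. No paired analysis was possible because no animal number occurs in more than 1 group. Signal near the negative controls limits 12 of the 40 genes.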
